A study of Mus musculus with 6 samples.

Results

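The glycolysis and hypoxia response genes described here are a list of 34 mouse genes, taken by symbol. They comprise the glucose transporter and enzymes that carry glucose to lactate, the oxygen-sensing genes, and genes known to be induced when oxygen is low. Of these, 31 were found among the 11234 genes in the libraries, and they filled 32 entries because 2 Ensembl genes carry the symbol *Aldoa*. *Aldoc*, *Slc16a3* and *Egln3* had no entry. FPKM relates the fragments of a gene to its length and to all mapped fragments of the library. The larger of the 2 group means was never below 0.500 FPKM for any gene in the libraries, so nothing can be said of a gene that was low with and without C3G.

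MC3T3-E1 is a single mouse preosteoblast line, from skull bone of the C57BL/6 strain, and was used at passage 4. C3G, or cyanidin-3-O-glucoside, is an anthocyanin, one of the red and blue pigments of berries and black rice. All cells were held in serum-free medium for 24 h and then kept for 24 h in complete medium, with 100 μmol/L C3G in the C3G group (3 libraries) and without C3G in the control group (3 libraries). No source describes an exposure of either group to low oxygen. The sources do not say whether the 3 RNA-seq libraries of a group came from separate cultures, and if they did not, the p-values measure technical spread only.

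Glycolysis splits glucose into pyruvate, and lactate dehydrogenase turns pyruvate into lactate, which leaves the cell. Hypoxia-inducible factor is a transcription factor whose alpha subunit, the product of *Hif1a*, is destroyed while oxygen is present, after prolyl hydroxylases such as that of *Egln1* have modified it. When oxygen is low, it binds short hypoxia response elements and raises the transcription of most glycolytic enzymes, of the glucose transporter *Slc2a1* and of genes such as *Car9* and *Vegfa*. Because its control is largely at the protein level, the *Hif1a* transcript does not report its activity. Osteoblasts are known to draw much of their energy from glycolysis even when oxygen is present.

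Promoter sequence was examined because these genes share that factor as a known regulator. The letters ACGTG and GCGTG, the common forms of the response element core, were searched on both strands in RefSeq promoter windows of GRCm38.p6, from 250 bases before to 50 after each start, with overlapping matches counted. Windows were held for 29 of the 31 genes (not *Bnip3l* or *Ndrg1*). Of these 29 genes, 27 held a match to either form in at least 1 window, against 46.7% of all 27025 genes, and 20 held ACGTG, against 21.8%. By window, 35 of 46 held a match, against 43.8% of 32851, with ACGTG in 24 (19.6% of all windows) and GCGTG in 24 (32.4%). The 27025 genes include many without an entry in these libraries, and a gene with more windows has more places for a match. A match is a description of the letters and not evidence of a binding site. The 250 bases before the start are shown for *Car9* and *Pfkfb4*, the members that passed the thresholds for a difference, for *Gapdh*, whose level varied most among the abundant enzymes, and for *Pgk1*, a glycolytic enzyme with 2 ACGTG matches. Capitals mark the matches (CACGT and CACGC are the same letters read on the other strand), and each sequence runs 5′ to 3′ toward the gene.
Car9: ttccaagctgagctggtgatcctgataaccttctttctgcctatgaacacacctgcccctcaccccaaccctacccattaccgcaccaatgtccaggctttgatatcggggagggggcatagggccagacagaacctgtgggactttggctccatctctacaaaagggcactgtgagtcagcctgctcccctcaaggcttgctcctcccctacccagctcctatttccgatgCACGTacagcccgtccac
Pfkfb4: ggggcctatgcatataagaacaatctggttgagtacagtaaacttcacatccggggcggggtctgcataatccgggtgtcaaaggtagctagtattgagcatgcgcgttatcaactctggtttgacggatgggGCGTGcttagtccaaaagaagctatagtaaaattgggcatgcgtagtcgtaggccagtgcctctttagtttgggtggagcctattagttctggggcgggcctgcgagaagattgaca
Gapdh: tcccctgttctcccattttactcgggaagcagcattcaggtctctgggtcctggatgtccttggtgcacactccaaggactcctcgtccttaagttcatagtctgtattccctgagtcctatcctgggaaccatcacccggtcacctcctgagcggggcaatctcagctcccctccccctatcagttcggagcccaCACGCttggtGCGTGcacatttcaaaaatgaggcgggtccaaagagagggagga
Pgk1: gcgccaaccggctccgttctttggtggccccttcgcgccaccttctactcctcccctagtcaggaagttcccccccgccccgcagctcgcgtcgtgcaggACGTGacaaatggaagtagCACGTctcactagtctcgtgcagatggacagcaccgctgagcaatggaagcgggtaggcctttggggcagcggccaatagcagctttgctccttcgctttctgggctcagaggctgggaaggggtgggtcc
These are chr4:43506776-43507025 on the plus strand for *Car9*, chr9:108991652-108991901 on the plus strand for *Pfkfb4*, chr6:125165774-125166023 on the minus strand for *Gapdh*, and chrX:106186850-106187099 on the plus strand for *Pgk1*. The starts used here are those of RefSeq. *Car9* had a single ACGTG match that began 18 bases before the start, and *Pfkfb4* a single GCGTG match 117 bases before it. In the GENCODE M21 annotation these 2 genes begin earlier, at chr4:43506966 and chr9:108991778, so both matches lie inside the GENCODE genes. *Gapdh* had 2 GCGTG matches, 54 and 44 bases before the start, and those of *Pgk1* began 150 and 131 bases before it. The searched *Gapdh* window also held 1 ACGTG match at position 42 after the start, beyond the stretch shown. That stretch lies within the GENCODE gene of *Gapdh*, which reaches to chr6:125166467.

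One library stood apart. Over all genes, control replicate 1 correlated with the other 5 libraries at r = 0.886 to 0.939 on the log2 scale, and the others correlated among themselves at 0.968 to 0.992. The median FPKM was between 5.80 and 7.40 in the 6 libraries, and 9 to 71 genes per library, but none of the 32 entries here, were at 0. The deposited values give no read counts, so the depth is unknown. Of 9 genes used to check the osteoblast label, 8 had an entry and *Ibsp* had none. Their summed FPKM was 2487 to 7584 in the controls, with the highest in control replicate 1, and 2520 to 3460 with C3G. Most of it came from the matrix genes *Col1a1*, *Col1a2* and *Sparc*, which other mesenchymal cells also express. *Runx2*, the early osteoblast transcription factor, had a mean of 7.98 FPKM, and *Sp7*, which acts later in the lineage, was near the bottom at 0.54, ranking 11060th. *Dlx5*, a homeobox factor of the lineage, had the highest log2 difference of these markers, 0.38, and *Col1a1* the lowest, -0.53, both with 95% confidence intervals that include 0. In control replicate 1 *Dlx5* had 7.86 FPKM (14.2 to 18.1 elsewhere) and *Col1a1* had 4432 (923 to 1478 elsewhere). Over the 18 alternative fits described below, the difference ran from 0.0073 to 0.53 for *Dlx5* and from -0.96 to 0.15 for *Col1a1*.

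Transcripts of the later steps of the pathway were among the most abundant of these cells. *Pgam1* (phosphoglycerate mutase) had a mean FPKM of 742 over the 6 libraries and ranked 30th of all genes, followed by *Pgk1* (phosphoglycerate kinase) at 441, *Pkm* (pyruvate kinase) at 299, *Ldha* (the main lactate dehydrogenase subunit of glycolytic cells) at 279, *Tpi1* (triosephosphate isomerase) at 248.9, *Aldoa* (aldolase) at 237, *Eno1* (enolase) at 158 and *Gapdh* at 143. These 8 exceeded 100 FPKM, 17 entries lay between 10 and 100 and 7 were under 10. The median of the 32 entries was 25.6 FPKM, against 7.197 for all genes. The 21 entries from glucose entry to pyruvate and lactate include transporters and regulators such as *Slc16a1*, *Pfkfb3* and *Pdk1*. Together they took 1.12% ± 0.0578 (SD, n = 3) of all FPKM in the controls and 1.11% ± 0.0825 in C3G-treated cells, with an exact permutation p of 1. The upper pathway was lower, from 44.1 FPKM for *Pfkl* to 1.095 for *Pfkfb4*. Of the 9 hypoxia targets outside glycolysis, *Bnip3* (58.4) and *Car9* (50.7) were the most abundant and *Ankrd37* (2.62) the least.

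**Figure D1:**
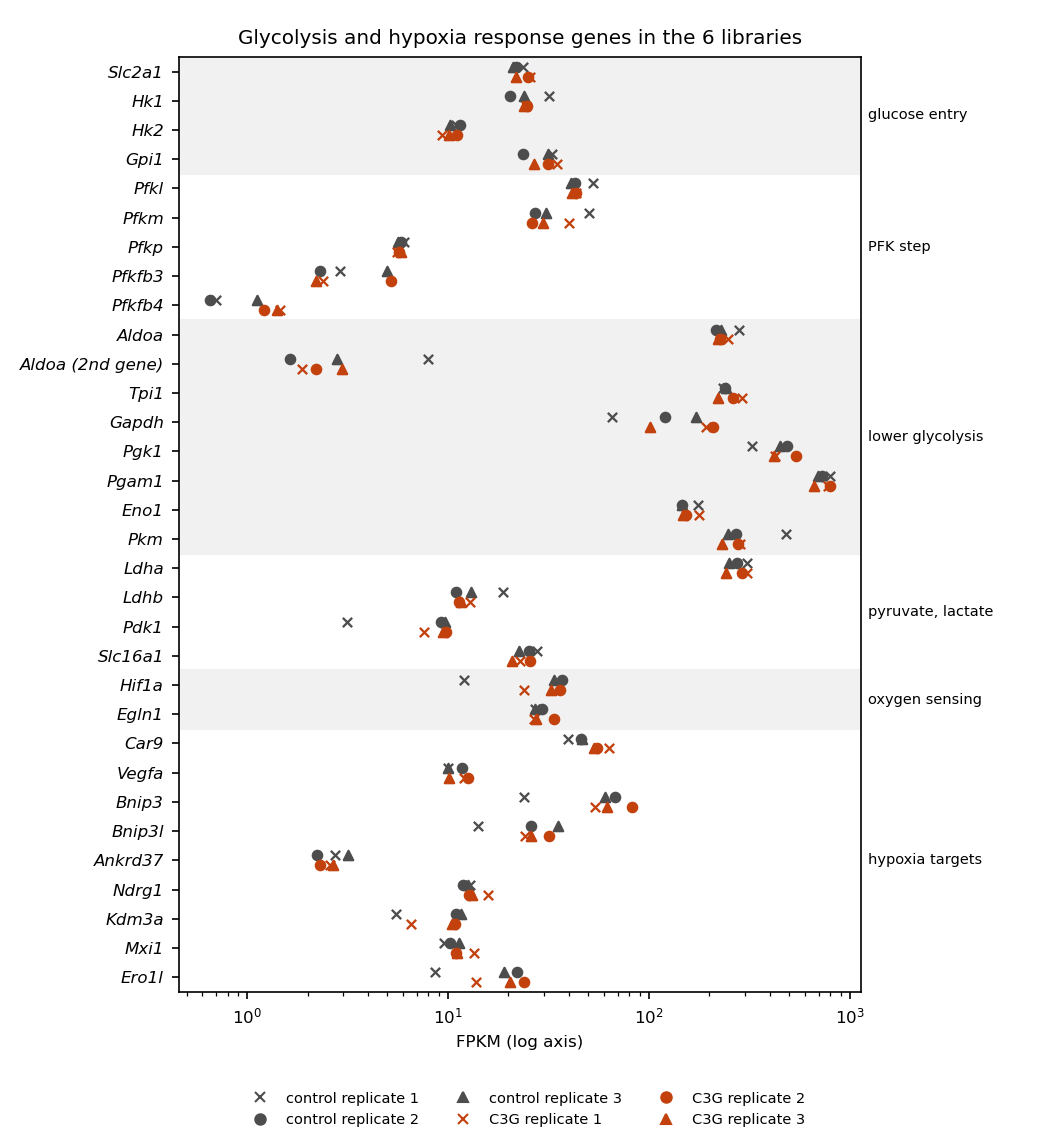
FPKM (log axis) of the 32 entries in the 6 libraries, grouped by role, with a symbol for each replicate number and a colour for each group. The enzymes from *Aldoa* to *Ldha*, apart from the second *Aldoa* gene, lie above 100 except for *Gapdh* in 1 library, *Pfkfb4* lies near 1, and control replicate 1 (grey cross) stands apart from the other 5 libraries for *Hif1a*, *Pdk1*, *Bnip3* and *Pkm*.

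The question of the study was which transcripts differed after C3G. Of the 32 entries, 2 were higher with C3G at the study's thresholds (fold change of 1.2 or more and unadjusted limma p under 0.05, with values as log2(FPKM + 1)) and none was lower. They were *Car9* and *Pfkfb4*. Of all 11234 genes, 0.650% passed in either direction and 0.401% passed as higher. After Benjamini-Hochberg adjustment over all genes no entry passed (limma adjusted p of at least 0.992 for each), nor did any other gene (0% called, smallest limma adjusted p 0.497), although 74 genes had an unadjusted p under 0.05. Both genes are on the study's own list of DEGs (differentially expressed genes), which was drawn from these same 6 libraries, so their calls here are not independent evidence. The 32 differences had a median of 0.05 on the log2 scale, against 0.06 for all genes, and ran from -0.44 (the second *Aldoa* gene) to 0.52 (*Gapdh*). Of the entries, 20 were above 0, against 62.0% of all genes. A fold change of at least 1.2, without regard to p, was seen upward for 7 entries (16.2% of all genes) and downward for 2 (6.13%). In 3 of 3 same-numbered pairs of libraries, 8 entries were higher with C3G (14.2% of all genes) and 2 were lower (11.6%). Without control replicate 1, 20 of the 32 entries were above 0 (47.2% of all genes), with a median of 0.05 (-0.01 for all genes). With replicates 2 and 3 only, 22 were above 0 (45.0% of all genes), with a median of 0.02 (-0.01). With GC correction, 20 were above 0 (49.6% of all genes), with a median of 0.04 (-0.0013).

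**Figure D2:**
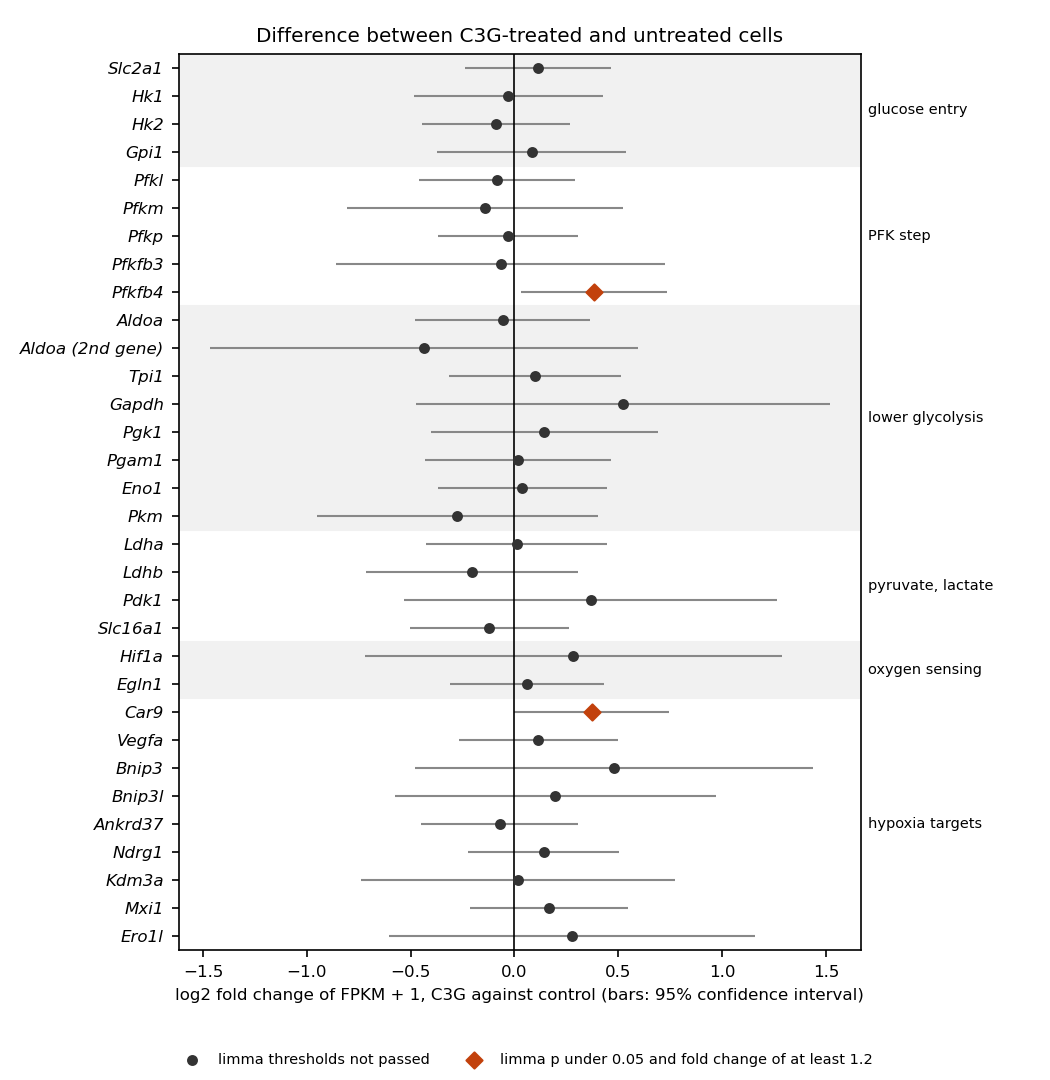
Difference in mean log2(FPKM + 1) between C3G-treated and untreated cells for the 32 entries, with 95% confidence intervals from limma (n = 3 per group). *Pfkfb4* and *Car9* (diamonds) passed the unadjusted thresholds, and the intervals of the other 30 entries include 0.

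*Car9* encodes a carbonic anhydrase of the cell surface that helps tumour and hypoxic cells to export acid. Its FPKM was 39.4, 46.0 and 46.7 in control replicates 1 to 3 and 63.4, 55.1 and 53.5 in C3G replicates 1 to 3. Each C3G library was above each control library, as was the case for 2.55% of all genes. The means were 44.0 ± 4.01 and 57.3 ± 5.29 (SD, n = 3), and the difference was 0.37 on the log2 scale (SE 0.16, 95% confidence interval 0.00 to 0.75, limma p = 0.04998, exact permutation p = 0.1, the smallest that 3 against 3 allows). The C3G to control ratio was 1.61 in replicate 1, 1.198 in replicate 2 and 1.15 in replicate 3. In moderated limma fits, which are not exact tests, the call was lost with the replicate number as a block (p = 0.0570) and when any 1 of the 6 libraries was left out (p from 0.0516, without control replicate 1, to 0.134, without C3G replicate 1). The difference was 0.22 with replicates 2 and 3 only, under the fold threshold. *Car9* lies at chr4:43506966-43513729 (GRCm38, plus strand), and an exon of *Gm12454* overlaps it on the opposite strand. No stretch of 75 bases of its transcripts was shared with another gene.

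*Pfkfb4* encodes a bifunctional enzyme that makes and removes the strongest activator of phosphofructokinase. Its FPKM was 0.70, 0.65 and 1.12 in control replicates 1 to 3 and 1.47, 1.22 and 1.42 in C3G replicates 1 to 3. It thus ranked 10356th of 11234 genes, and the highest control library was below the lowest C3G library. The means were 0.82 ± 0.26 and 1.37 ± 0.13 (SD, n = 3), a ratio of 1.66. With 1 added to each value the log2 difference was 0.38 (SE 0.15, 95% confidence interval 0.03 to 0.73, limma p = 0.0362, exact permutation p = 0.1), which understates the ratio of so low a gene, and with 0.1 added it was 0.70. The C3G to control ratio was 2.09, 1.87 and 1.26 in replicates 1 to 3. With the replicate block, which called 1.50% of all genes in either direction, *Pfkfb4* passed and was the sole entry to do so (limma p = 0.0269, from the moderated fit and not from an exact test). The call was lost without control replicate 1 or 2 or without any of the C3G libraries, with limma p between 0.0523 and 0.127. *Pfkfb4* lies at chr9:108991778-109032228 (GRCm38, plus strand), with no overlapping exon of another gene and no shared 75-base stretch.

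**Figure D3:**
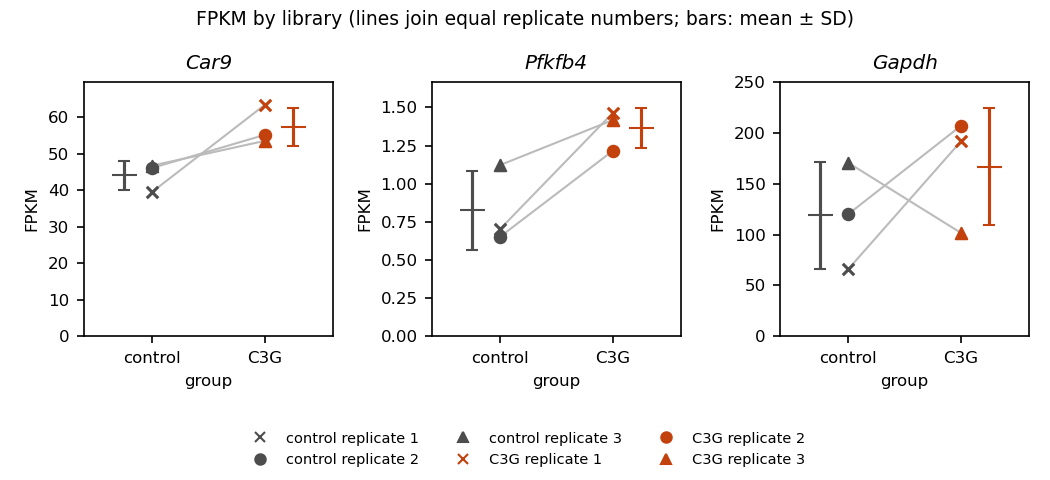
FPKM of *Car9*, *Pfkfb4* and *Gapdh* in each library, with lines between equal replicate numbers and bars for mean ± SD (n = 3). For *Car9* and *Pfkfb4* each C3G library lies above each control library, whereas *Gapdh* runs from 65.8 to 207 with the groups overlapping and replicate 3 in the opposite direction to replicates 1 and 2.

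Glucose entry and phosphorylation are represented by the transporter *Slc2a1*, the hexokinases *Hk1* and *Hk2*, which trap glucose in the cell, and the isomerase *Gpi1*. None of the 4 passed the thresholds and their median log2 difference was 0.03. *Slc2a1* had an FPKM of 23.7, 21.8 and 21.1 in the controls and 25.6, 24.99 and 21.9 with C3G. It was the larger value in each numbered pair, but the groups overlapped and the difference of 0.11 (SE 0.15, exact permutation p = 0.2) was within the replicate error. *Hk2*, the hexokinase that hypoxia-inducible factor is known to induce, had values of 10.95, 11.5 and 10.2 in the controls and 9.34, 11.1 and 10.2 with C3G, with a log2 difference of -0.09 (exact permutation p = 0.4, range -0.15 to -0.03 when 1 library was left out). *Hk1* and *Gpi1* gave log2 differences of -0.03 and 0.08.

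At the phosphofructokinase step, the main control point of the pathway, 1 of 5 entries (*Pfkfb4*, above) passed. The 3 catalytic subunits, *Pfkl*, *Pfkm* and *Pfkp*, had log2 differences of -0.08, -0.14 and -0.03 (exact permutation p of 0.9, 0.6 and 0.5). *Pfkp* was the steadiest entry of all, between 5.55 and 6.06 FPKM in the 6 libraries, a coefficient of variation (CV) of 3.101%. *Pfkfb3*, the other bifunctional enzyme here and the more active kinase of the family, had 2.92, 2.32 and 4.96 FPKM in the controls and 2.38, 5.23 and 2.20 with C3G. In each group 1 library was near 5 and the other libraries were between 2 and 3, so the groups overlapped. Its log2 difference was -0.07 with a confidence interval from -0.86 to 0.73, so a change of the size seen for *Pfkfb4* in either direction was not detectable.

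The 8 entries of lower glycolysis, from aldolase to pyruvate kinase, had a median log2 difference of 0.03 and none passed. *Pgam1* (0.02), *Eno1* (0.04), *Tpi1* (0.10), *Aldoa* (-0.06) and *Pgk1* (0.14) each had a difference smaller than its standard error. *Pgk1* had an FPKM of 325, 488 and 448 in the controls and 426, 539 and 418 with C3G, and its difference was -0.03 without control replicate 1. *Pkm* had 480 in control replicate 1 and 230 to 284 in the other 5 libraries, and its difference of -0.28 (exact permutation p = 0.6) became 0.02 without that library. The second *Aldoa* gene, at chr7:126800790-126809108 directly upstream of the main one, showed the same with 7.96 FPKM in control replicate 1 and 1.64 to 2.96 elsewhere. Near-identical copies make several of these values uncertain, since the handling of shared reads is not stated. Of the 75-base stretches of the longest transcript, 67.5% for *Pgk1*, 65.4% for *Eno1*, 40.6% for *Pgam1* and 19.6% for *Pkm* also occur in other genes, mostly pseudogenes.

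*Gapdh*, the glyceraldehyde-phosphate dehydrogenase and the reference gene of the study's qRT-PCR, was the least steady of the abundant enzymes. Its FPKM was 65.8, 120 and 171 in control replicates 1 to 3 and 192, 207 and 102 in C3G replicates 1 to 3, so that the highest library had 3.15 times the lowest. The group means were 119 ± 52.6 and 167 ± 57.3 (SD, n = 3). The log2 difference was 0.52 (SE 0.42, 95% confidence interval -0.47 to 1.52, limma p = 0.252, exact permutation p = 0.4), within the replicate error. C3G to control ratios were 2.92, 1.73 and 0.59 in replicates 1 to 3. With replicates 2 and 3 only, the log2 difference was 0.02. When 1 library was left out, it ran from 0.15 (without control replicate 1) to 0.85 (without C3G replicate 3). The CV of *Gapdh* over the 6 libraries was 39.0%, and of the 347 genes with a mean of at least 100 FPKM, 54 had a larger one (median 20.2%). Between 22.8% (longest transcript) and 93.8% (the coding transcript with the most) of its 75-base stretches occur among 118 other genes, and whether shared reads moved the value was not tested.

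Set against *Gapdh* within each library, 30 of the 31 other entries had a lower mean log2 ratio with C3G and 1, *Pfkfb4*, had a higher one. These ratios share the *Gapdh* value and are not 31 separate results. An exact permutation test of 3 against 3 libraries cannot go below 0.1, so no ratio could pass 0.05, and the smallest p was 0.2. For *Car9* the difference in log2 ratio was -0.15 (exact permutation p = 0.7) against 0.37 for its own FPKM, and for *Pfkfb4* it was 0.24 (exact permutation p = 0.6). The higher FPKM of *Car9* with C3G was therefore not seen relative to *Gapdh*, except without control replicate 1 (0.15), without C3G replicate 2 (0.07) and with replicates 2 and 3 only (0.21). The *Pfkfb4* value turned to -0.11 without C3G replicate 3, was 0.03 without control replicate 2 and was 0.60 with replicates 2 and 3 only.

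Among the genes of pyruvate and lactate, none of 4 passed and the median log2 difference was -0.06. *Ldha* had 308, 274 and 252 FPKM in the controls and 307, 292 and 242 with C3G, and its difference was 0.01 (95% confidence interval -0.43 to 0.45, exact permutation p = 1). *Ldhb*, the subunit favouring the return of lactate to pyruvate, had a difference of -0.20 (exact permutation p = 0.6), with its highest value of 18.7 in control replicate 1 and 10.99 to 12.95 elsewhere. Without that library the difference was -0.0016. *Slc16a1*, a transporter of lactate across the cell membrane, had a difference of -0.12 (exact permutation p = 0.5), which was -0.29 with GC correction and ran from -0.20 to -0.05 when 1 library was left out. *Pdk1*, the kinase that closes the entry of pyruvate into the mitochondrial cycle, had 3.14 FPKM in control replicate 1, 9.24 and 9.69 in the other controls, and 7.58, 9.80 and 9.49 with C3G. The difference was 0.37 (exact permutation p = 0.6) with that library and -0.08 without it.

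Of the oxygen-sensing genes, *Hif1a* had 12.1, 37.0 and 33.8 FPKM in the controls and 23.9, 36.3 and 32.5 with C3G. Both replicate 1 libraries were low, and in pairs 2 and 3 the C3G to control ratios were 0.98 and 0.96. The log2 difference was 0.28 (SE 0.42, 95% confidence interval -0.72 to 1.29, exact permutation p = 0.9), and -0.21 without control replicate 1. *Egln1* was steadier, between 26.7 and 33.6 FPKM in all libraries, with a difference of 0.06 (exact permutation p = 0.8).

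The 9 other hypoxia targets had a median log2 difference of 0.17, with 8 above 0, against 62.0% of all genes, and 1 (*Car9*, above) passed. In 3 of 3 same-numbered pairs 5 of the 9 were higher with C3G, against 14.2% of all genes. Without control replicate 1, 5 of the 9 were above 0 (47.2% of all genes) and the median was 0.02 (-0.01 for all genes). With replicates 2 and 3 only, 6 were above 0 (45.0% of all genes) with a median of 0.05 (-0.01), and with GC correction 7 were above 0 (49.6% of all genes) with a median of 0.07 (-0.0013). *Vegfa*, the growth factor for blood vessels, had 9.96, 11.8 and 10.0 FPKM in the controls and 12.01, 12.6 and 10.2 with C3G, a difference of 0.12 (SE 0.16, exact permutation p = 0.2). *Ndrg1*, a stress-induced gene, had 12.8, 11.9 and 12.6 in the controls and 15.8, 12.7 and 13.2 with C3G, a difference of 0.14 (SE 0.15, exact permutation p = 0.2). Both were higher with C3G in each numbered pair, by ratios between 1.011 and 1.23, but their groups overlapped. When 1 library was left out, the difference of *Vegfa* ran from 0.06 (without C3G replicate 2) to 0.20 and that of *Ndrg1* from 0.05 (without C3G replicate 1) to 0.20. *Bnip3*, a receptor for the removal of mitochondria, had 24.04, 68.1 and 60.3 FPKM in the controls and 53.8, 82.2 and 61.9 with C3G. It was higher with C3G in each numbered pair, with ratios of 2.24, 1.21 and 1.03. Its difference of 0.48 (SE 0.40, exact permutation p = 0.5) became 0.02 without control replicate 1 and 0.15 without both replicate 1 libraries. The related *Bnip3l* gave 0.20, and *Ero1l*, an oxidase of protein folding in the endoplasmic reticulum, gave 0.28. Without control replicate 1 these were -0.15 and -0.11, and without both replicate 1 libraries they were -0.07 and 0.11. *Ero1l* was higher with C3G in each numbered pair (ratios 1.595, 1.09 and 1.078), and *Bnip3l* in pairs 1 and 2. *Mxi1*, an antagonist of Myc, gave 0.17, *Kdm3a*, a histone demethylase, 0.02, and *Ankrd37*, a small ankyrin-repeat protein, -0.07, with exact permutation p of 0.3, 1 and 0.6. The value of *Mxi1* ran from 0.08 to 0.23 when 1 library was left out, and was 0.03 with replicates 2 and 3 only and 0.05 with GC correction.

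Much of the spread among these genes ran with the base composition of their transcripts. The departure of control replicate 1 from control replicates 2 and 3 followed the GC content of the longest transcript at a Spearman rho of 0.733 (Pearson r 0.779) across the 32 entries, and at a rho of 0.748 across the 11211 genes with a GC value. For C3G replicate 1 the same rho was 0.462 (r 0.538) here and 0.631 over all genes. All points of a library share its depth and preparation, so these are descriptions. Of the 8 entries under 47% GC (*Hif1a*, *Pdk1*, *Slc16a1*, *Bnip3*, *Bnip3l*, *Kdm3a*, *Mxi1* and *Ero1l*), all but *Slc16a1* were lower in control replicate 1, with a median departure of -1.10 on the log2 scale. The 24 entries over 47% had a median of 0.10 and ran from -1.11 (*Gapdh*) to 1.497 (the second *Aldoa* gene). In C3G replicate 1 the medians of these 2 classes were -0.36 and 0.11. Of the 7 entries with an upward fold change of at least 1.2, *Hif1a*, *Pdk1*, *Bnip3* and *Ero1l* belong to the low-GC class, while *Car9* (53.9% GC), *Pfkfb4* (54.8%) and *Gapdh* (52.6%) do not. After a correction for GC content in each library, *Car9* was at 0.38 and *Pfkfb4* at 0.41, and both still passed the thresholds. The corrected differences of *Hif1a* and *Ero1l* were 0.08 and 0.08, and those of *Bnip3* and *Pdk1* were 0.28 and 0.25. The median CV of the entries was 14.4% over all libraries, with 9 over 30%. Without both replicate 1 libraries it was 8.45%, with 2 over 30% (*Pfkfb3* and *Gapdh*).

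**Figure D4:**
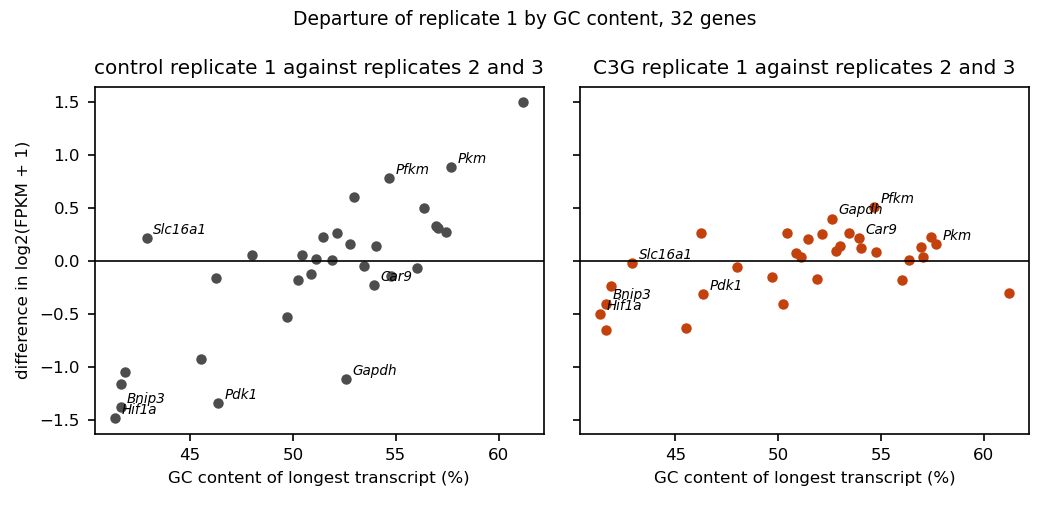
Departure of replicate 1 from the mean of replicates 2 and 3 of its group, as a difference in log2(FPKM + 1), against the GC content of the longest transcript for the 32 entries. In the controls (left) the points rise from -1.48 at the lowest GC content to 1.497 at the highest, with *Gapdh* at -1.11 well below its neighbours, and in the C3G group (right) the slope is shallower.

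The make-up of each isoenzyme family was compared within libraries, where library scaling cancels. *Hk2* was 30.6% ± 5.24 (SD, n = 3) of hexokinase FPKM in the controls and 29.5% ± 1.73 with C3G, and *Ldha* was 95.2% ± 0.940 and 95.9% ± 0.438 of lactate dehydrogenase FPKM. Phosphofructokinase consisted of 52.6% *Pfkl*, 40.6% *Pfkm* and 6.85% *Pfkp* in the controls and 53.4%, 39.5% and 7.15% with C3G. *Pfkfb4* took 19.4%, 21.9% and 18.5% of the summed FPKM of *Pfkfb3* and *Pfkfb4* in control replicates 1 to 3 and 38.2%, 18.9% and 39.1% in C3G replicates 1 to 3. The share was higher in C3G replicates 1 and 3, while C3G replicate 2, with its high *Pfkfb3*, lay within the control range (means 19.9% ± 1.81 and 32.1% ± 11.4, exact permutation p = 0.3). By the unpaired exact permutation test p was between 0.3 and 0.8 for the 6 shares, and the adjusted p over the 6 was 0.8 for each. Within same-numbered pairs, the *Pfkm* share was lower with C3G by 1.29, 0.80 and 1.18 percentage points in pairs 1 to 3, and the *Pfkl* share was higher by 0.61, 0.93 and 0.83. The *Ldha* share was higher by 1.72, 0.12 and 0.30 points. For these 3 shares a paired exact permutation test gave p = 0.25, the smallest that 3 pairs allow, and the *Pfkl* and *Pfkm* shares are parts of 1 sum.

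**Figure D5:**
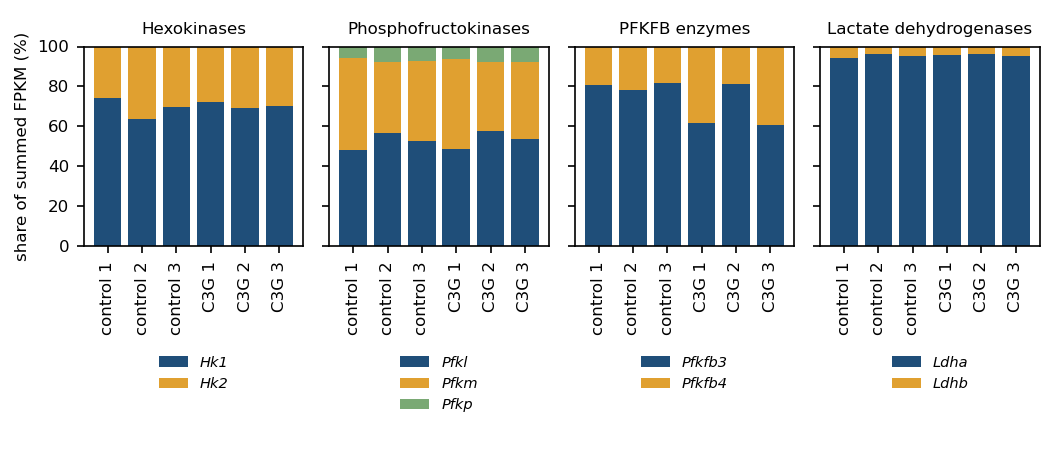
Share (%) of each isoenzyme in the summed FPKM of its family, as stacked bars for the 6 libraries. *Ldha* and *Hk1* make up most of their families in each library, and the share of *Pfkfb4* is 38.2% and 39.1% in C3G replicates 1 and 3 against 18.5% to 21.9% in the other 4 libraries.

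Neighbouring pathways gave few calls. Of 28 further glycolysis genes 15 had an entry and none passed. *Gpd2*, the mitochondrial glycerol-phosphate dehydrogenase, was highest at 0.37 (exact permutation p = 0.3). It had 7.36 FPKM in control replicate 1 and 13.6 to 15.4 elsewhere, and its difference ran from 0.098 to 0.51 over the 18 alternative fits. *Eno1b*, an enolase copy that shares sequence with *Eno1*, was lowest at -0.19. It had 47.8 FPKM in control replicate 1 and 27.1 to 35.3 elsewhere, and its difference ran from -0.31 to 0.03. Of 36 further genes of the hypoxia-inducible factor pathway 29 had an entry and none passed, with a median of 0.09, against 0.06 for all genes. Without control replicate 1 the median was 0.0078 (-0.01 for all genes). With replicates 2 and 3 only it was 0.04 (-0.01), with 21 of the 29 above 0 (45.0% of all genes). With GC correction it was -0.02 (-0.0013), with 11 of the 29 above 0 (49.6% of all genes). The highest there was *Ak4*, an adenylate kinase of mitochondria, at 0.71 (exact permutation p = 0.7), where C3G replicate 3 had 11.98 FPKM and the other 5 libraries 1.26 to 2.11. The lowest of this list was *Vhl*, which marks the factor's alpha subunit for destruction, at -0.31 (exact permutation p = 0.5). It was lower with C3G in each numbered pair (ratios 0.91, 0.60 and 0.92), as were 11.6% of all genes. Over the 18 alternative fits its difference ran from -0.63 to -0.07, and it was called in 1 of them. The transcription factor genes *Epas1* and *Hif3a* had no entry. All 8 genes of the pentose phosphate pathway had an entry and none passed. *Tkt* (transketolase) had 28.5, 22.1 and 23.3 FPKM in the controls and 21.3, 18.2 and 20.8 with C3G, without overlap (groups separated in the lower direction for 1.48% of all genes). Its difference of -0.28 was the lowest of that list (limma p = 0.139, exact permutation p = 0.1). *Rpe* was the highest of that list at 0.28, with 7.04 FPKM in control replicate 1 and 14.9 to 21.8 elsewhere. Its C3G to control ratios in pairs 2 and 3 were 0.955 and 0.947. Over the 18 alternative fits the *Rpe* difference ran from -0.21 to 0.54.

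Among 30 genes of pyruvate entry and the tricarboxylic acid cycle, all with an entry, 25 had a log2 difference above 0, against 62.0% of all genes, the median was 0.16, against 0.06, and 1 rose, against 0.401%. The median GC content of the list was 47.7%, against 49.6% for all genes. Without control replicate 1, 18 of the 30 were above 0 (47.2% of all genes) with a median of 0.02, and with replicates 2 and 3 only, 13 were above 0 (45.0% of all genes). With GC correction, 22 were above 0 (49.6% of all genes), with a median of 0.07. The gene that rose was *Mpc1*, a subunit of the carrier that brings pyruvate into mitochondria. Its FPKM was 7.98, 12.3 and 12.8 in the controls and 18.9, 17.5 and 13.4 with C3G, without overlap. The difference was 0.56 (SE 0.23, limma p = 0.0449, exact permutation p = 0.1), and the call was lost with the replicate block (limma p = 0.0628). It was kept in 10 of 18 alternatives. It was lost without control replicate 1 (0.37), control replicate 2 (0.65), C3G replicate 1 (0.47) or C3G replicate 2 (0.52), and the difference was 0.27 with replicates 2 and 3 only. *Mdh2* was the lowest of the list at -0.17 (exact permutation p = 0.7). It had 176 FPKM in control replicate 1 and 101 to 126 elsewhere, and its difference ran from -0.31 to 0.06 over the 18 alternatives.

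Markers of other cell types were examined because a bulk level cannot tell fewer cells of a type from less RNA per cell. None of 5 endothelial genes had an entry, and of the adipocyte and muscle lists only *Cebpa* and *Des* did, at no more than 3.71 and 1.63 FPKM. Of 7 macrophage and leukocyte genes, *Cd68*, *Cd14* and *Lyz2* had an entry, and the defining genes *Ptprc*, *Adgre1*, *Csf1r* and *Itgam* did not. The 3 summed to 33.8 to 43.1 FPKM in the controls and 48.4 to 57.2 with C3G, nearly all of it *Lyz2*, which was higher with C3G by 0.44 (limma p = 0.0315, exact permutation p = 0.1) and is also on the study's list of DEGs. These sums moved in the same direction as *Car9* and *Pfkfb4*, and their part in those differences was not tested.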

How the data were processed

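RNA of 6 MC3T3-E1 samples was sequenced from KAPA stranded libraries. The authors checked reads with FastQC 0.11.8 and deposited FPKM values per gene, calculated with Ballgown. The submitters' processing notes list cutadapt, HISAT2 2.1.0, StringTie, STAR 2.5.2b and the build hg19, which is human; the identifiers are mouse genes, 9812 of them in GENCODE M21 versions. Depth, and so counting error, is unknown. The dose label gives μm/l; μmol/L is the study's unit.

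Groups and replicate numbers came from the sample labels. Values were fitted as log2(FPKM + 1) with limma 3.58.1 (lmFit, eBayes with trend, two-sided) in R 4.3.3 over all 11234 genes, with Benjamini-Hochberg adjustment over them. The study's thresholds were used. Isoenzyme shares and ratios to *Gapdh* within a library were compared with two-sided exact permutation tests (scipy 1.17.1), unpaired and, for shares, within numbered pairs. The fits were tested on simulated data. Coordinates, GC content and shared 75-base stretches come from GENCODE M21 (GRCm38) and promoters from RefSeq (GRCm38.p6). All 31 members present are named; of other lists, genes with an unadjusted p under 0.05 and the highest and lowest difference. *Cd68*, *Col1a2*, *Sparc*, *Runx2* and *Sp7* fall outside that rule and were chosen with their values in view. The members and lists were chosen with earlier results of these data known.

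Same-numbered libraries of the 2 groups deviated from their group means together (correlations over 11234 genes of 0.653, 0.580 and 0.440, against -0.640 to 0.307 for other pairs). The numbers come from the labels, and no source says what they stand for. The main fit and the unpaired tests do not use them. A fit with the number as a replicate block, and 17 further alternatives, were computed.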

Additional observations from a re-analysis of the deposited data

How the results depend on the processing

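The number of members called, 2, was also 2 with a mean FPKM of at least 1, an ordinary linear model, the ratio of group means, and GC correction with or without the block. It was 1 with a pseudocount of 0.1, with eBayes without trend, with quantile normalization and with the replicate block. It was 0 with the library covariate, with median centring and with replicates 2 and 3 only, and 0 to 1 when 1 library was left out. DEGs over all genes, 73, were 48 with the ordinary linear model, 169 with the replicate block, 135 with GC correction, 246 with GC correction and replicate block, 191 with replicates 2 and 3 only, and 40 to 144 when 1 library was left out. The median of the members was -0.016 with median centring, which shifts the differences of all genes by the same amount (*Car9* from 0.37 to 0.31). *Car9* was called in 7 of 18 alternatives (log2 difference 0.22 to 0.42, limma p 0.0246 to 0.134) and *Pfkfb4* in 8 of 18 (0.31 to 0.73, limma p 0.0181 to 0.127). Apart from *Car9*, the replicate block changed the call of no member. The depth is unknown, so it sets no limit that can be stated, and with 3 libraries per group an exact test cannot go below 0.1.

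Members that passed in no fit changed sign as follows. With the library covariate, *Hif1a* was at -0.10, *Hk1* 0.10, *Pfkm* 0.069, *Aldoa* 0.031, *Bnip3l* -0.072, *Kdm3a* -0.24 and *Ero1l* -0.032. With quantile normalization, *Pgam1* was at -0.016 and *Kdm3a* -0.055. With median centring, *Pgam1* was at -0.049, *Eno1* -0.028, *Ldha* -0.056, *Egln1* -0.0049 and *Kdm3a* -0.050, and with the ratio of group means *Kdm3a* was at -0.018. With GC correction, with or without replicate block, *Hk1* was at 0.029, *Aldoa* 0.013, *Ldha* -0.023 and *Kdm3a* -0.11. With replicates 2 and 3 only, *Hif1a* was at -0.041, *Hk1* 0.13, *Pfkl* 0.0078, *Pfkp* 0.0057, *Pfkfb3* 0.0082, *Aldoa* 0.0086, the second *Aldoa* gene 0.16, *Tpi1* -0.0022, *Bnip3l* -0.073 and *Kdm3a* -0.082.

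When 1 library was left out, the log2 difference ran from -0.13 to 0.053 for *Aldoa*, -0.82 to 0.063 for the second *Aldoa* gene, -0.17 to 0.021 for *Ankrd37*, -0.15 to 0.48 for *Bnip3l* and -0.040 to 0.12 for *Egln1*. It ran from -0.040 to 0.13 for *Eno1*, -0.11 to 0.52 for *Ero1l*, -0.058 to 0.19 for *Gpi1*, -0.21 to 0.56 for *Hif1a* and -0.17 to 0.14 for *Hk1*. The range was -0.29 to 0.23 for *Kdm3a*, -0.059 to 0.11 for *Ldha*, -0.078 to 0.61 for *Pdk1*, -0.37 to 0.18 for *Pfkfb3* and -0.15 to 0.021 for *Pfkl*. Leaving out 1 library gave -0.32 to 0.12 for *Pfkm*, -0.032 to 0.099 for *Pgam1*, -0.031 to 0.26 for *Pgk1* and -0.46 to 0.020 for *Pkm*.

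The shares were recomputed with quantile normalization, GC correction, replicates 2 and 3 only, the replicate block and each library left out. In these settings the difference in share, in percentage points, ran from -3.59 to 1.63 for *Hk2*, -0.39 to 0.76 for *Pfkp*, -3.84 to 1.76 for *Pfkm* and -1.41 to 3.08 for *Pfkl*, each with a change of sign. For *Pfkm* and *Pfkl* the sign changed only without control replicate 1 and without C3G replicate 2, where a numbered pair is incomplete. The *Pfkfb4* and *Ldha* shares kept their sign. Their differences ran from 8.59 to 18.7 for *Pfkfb4* and 0.21 to 1.197 for *Ldha*.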
